A study of Mus musculus with 6 samples.

Results

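Small nucleolar RNAs (snoRNAs) and small Cajal body RNAs were read out in sorted intestinal stem cells of mice, in 3 control libraries and 3 libraries labelled Klf5-KO. A gene was a member where its GENCODE symbol began with Snora (box H/ACA class), Snord (box C/D class) or Scarna (Cajal body class) and it had at least 10 reads in 3 or more of the 6 libraries. Of 53379 genes in the count files, 150 carried such a symbol and 62 were members: 16 of box H/ACA, 40 of box C/D and 6 of the Cajal body class. Members were thus chosen by symbol and by read count over all 6 libraries. The rule did not use the group, but a gene could meet it through the 3 libraries of 1 group. In 9 members fewer than 3 controls met the minimum.

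All mice were C57BL/6, carried Lgr5-EGFP-IRES-CreERT2 and Rosa-tdTomato, and were given tamoxifen, 1 mg a day for 5 days. The Klf5-KO mice also carried Klf5fl/fl, so Cre and its activation were shared by both groups and the floxed Klf5 allele was the difference. CreERT2 is driven from Lgr5, so recombination starts in Lgr5-expressing cells. EGFP-high cells from the proximal small intestine were sorted, and stranded libraries were made from column-purified total RNA after depletion of ribosomal RNA. The sources used here give neither age nor sex of the mice, nor whether each library came from a separate mouse; the p-values therefore rest on library-to-library spread, which may be technical.

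Most vertebrate snoRNAs lie in introns of host genes and are released by trimming of the spliced-out intron, and their bound proteins protect the ends. Box C/D RNAs, with Fbl, Nop56, Nop58 and Snu13, guide ribose methylation of ribosomal RNA. Box H/ACA RNAs, with Dkc1, Nhp2, Nop10 and Gar1, guide conversion of uridine to pseudouridine. Cajal body RNAs carry one or both kinds of box and guide the same changes on spliceosomal RNAs. Crypt base stem cells divide often and have a high demand for ribosomes.

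The boxes that define the classes are shown in RNAs that span the results described below: the box C/D RNAs with the 4 highest fold changes, one of a pair from a shared host (Snord53), the 2 box H/ACA RNAs with the highest fold changes, the most abundant box H/ACA RNA (Snora73b), one with no host gene (Snora57), and the called Cajal body RNA (Scarna9). Sequences are GENCODE vM21 transcripts on GRCm38 (mm10), written 5′ to 3′ as DNA letters. Capitals mark TGATG (the core of the C box) within the first 20 bases and CTGA (the D box) within the last 20 in box C/D RNAs and in Scarna9. In box H/ACA RNAs they mark ANANNA (the H box) in the middle of the RNA, from 35 to 65% of its length, and ACA 3 bases before the end. Letters and windows were chosen after the sequences were seen, only the RNA's own strand was searched, and the motifs do not overlap.
Snord91a: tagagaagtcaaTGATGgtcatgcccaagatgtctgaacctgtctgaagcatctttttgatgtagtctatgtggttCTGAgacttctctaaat
Snord71: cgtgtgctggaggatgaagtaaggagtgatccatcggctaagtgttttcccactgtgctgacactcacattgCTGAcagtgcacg
Snord73a: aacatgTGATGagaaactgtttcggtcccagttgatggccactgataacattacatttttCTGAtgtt
Snord72: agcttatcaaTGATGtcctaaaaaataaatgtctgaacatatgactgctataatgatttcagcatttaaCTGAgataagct
Snord53: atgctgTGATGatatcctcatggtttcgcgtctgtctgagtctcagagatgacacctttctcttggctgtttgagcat
Snora23: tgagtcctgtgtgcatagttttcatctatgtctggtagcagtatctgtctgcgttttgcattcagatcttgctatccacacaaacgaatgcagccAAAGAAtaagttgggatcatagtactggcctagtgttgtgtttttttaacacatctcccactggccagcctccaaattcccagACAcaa
Snora30: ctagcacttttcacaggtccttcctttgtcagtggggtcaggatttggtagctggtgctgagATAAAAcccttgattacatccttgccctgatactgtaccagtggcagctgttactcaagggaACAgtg
Snora73b: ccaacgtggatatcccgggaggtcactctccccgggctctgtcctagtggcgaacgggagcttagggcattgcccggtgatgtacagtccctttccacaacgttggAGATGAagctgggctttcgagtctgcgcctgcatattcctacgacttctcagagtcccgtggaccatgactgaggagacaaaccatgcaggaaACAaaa
Snora57: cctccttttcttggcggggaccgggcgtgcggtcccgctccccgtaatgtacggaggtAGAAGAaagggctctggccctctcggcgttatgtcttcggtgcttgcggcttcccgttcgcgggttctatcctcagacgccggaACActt
Scarna9: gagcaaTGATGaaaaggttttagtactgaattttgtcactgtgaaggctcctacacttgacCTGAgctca

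These RNAs lie at chr11:74905424-74905516, plus strand (Snord91a), chr8:109839295-109839379, plus (Snord71), chr3:86138791-86138858, minus (Snord73a) and chr15:5118404-5118484, plus (Snord72). Snord53 lies at chr17:71640879-71640956, plus. The box H/ACA RNAs lie at chr7:110046364-110046547, plus (Snora23), chr7:127527874-127528003, plus (Snora30), chr4:132352322-132352526, minus (Snora73b) and chr19:8888538-8888685, minus (Snora57). Scarna9 lies at chr9:15326264-15326333, minus. Of these 10, all but Snora57 lie in an intron of a longer gene on the same strand. TGATG was found near the start in 34 of 40 box C/D members (85%) and in 87.9% of the 99 annotated box C/D genes. CTGA was found near the end in 39 of 40 members (97.5%) and in 98% of the annotated genes. Among box H/ACA members, 14 of 16 (87.5%) had ACA 3 bases before the end, as did 83.3% of the 42 annotated genes, and no annotated box H/ACA gene had TGATG near its start. The H box letters are loose: they were found in the middle of 93.8% of box H/ACA members, and also of 40% of box C/D members. No match, as for TGATG in Snord71 and CTGA in Snord53, says only that these letters are not in that window.

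The libraries held 61563625 to 77666540 counted reads, and members took 0.0767 to 0.109% of them. A count of 0 allowed up to 0.0389 to 0.0484 CPM (reads scaled to library size; from a floor of 3 reads, for counting error only). Klf5 went against the labels: it had 34951, 39455 and 33862 reads in the controls and 60238, 58956 and 63492 in the libraries labelled Klf5-KO, a log2 fold change of 0.80 (SE 0.10, edgeR adjusted p = 0.000632). The count sums all exons, so it cannot tell floxed exons from the rest, and every direction below is that of the labels. The 4 crypt base stem cell markers summed to 6086 to 8586 CPM in controls, against 1836 to 3058 CPM in libraries labelled Klf5-KO. The 4 Paneth cell markers summed to 1216, 1399 and 13270 CPM in the controls, so control replicate 3 stood apart, and to 6217 to 7800 CPM in the others. Enterocyte markers (2 genes) summed to 107, 78.9 and 148 CPM against 468, 258 and 332 CPM, and tuft cell markers (2) to 56.8, 60.0 and 42.0 against 122, 88.0 and 62.9 CPM. Enteroendocrine markers (2) summed to 114, 131 and 248 CPM against 64.1, 71.2 and 70.7, general epithelial markers (3) to 3526, 3792 and 3735 against 2859, 2530 and 2764, and goblet markers (2) to 581, 499 and 733 against 477, 429 and 377. None of these 5 sums overlapped between groups. Single genes in 4 of the sets did: Epcam, Muc2, Alpi and Trpm5 overlapped and were not called (edgeR adjusted p = 0.716, 0.325, 0.408 and 0.0586). Immune markers (3) summed to 7.97, 5.11 and 7.47 CPM against 8.06, 7.025 and 6.67, with overlap. Stromal markers (3) summed to 6.25, 6.91 and 10.7 CPM against 3.58, 4.78 and 3.76, with no overlap. Of the stromal markers, Vim was called lower (log2 fold change -1.18, edgeR adjusted p = 0.00569), and Col1a1 and Pecam1 were not called. None of the 25 markers checked was at 0 in all libraries. What part these markers have in the results was not tested, and in sorted cells read in bulk, fewer cells of a type and less RNA per cell cannot be told apart.

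Many box H/ACA and box C/D RNAs, and 1 of 6 Cajal body RNAs, were counted higher in the libraries labelled Klf5-KO. Of the members, 53 lie wholly in introns, where the counts cannot tell the small RNA from unspliced host transcript. Of the 62 members, 18 were called higher (29%) and 0 lower by edgeR's quasi-likelihood test, at a Benjamini-Hochberg adjusted p under 0.05 over 19339 tested genes. Over all tested genes 13.3% were called higher and 12.5% lower. A log2 fold change above 0 was found for 57 of 62 members, against 49.1% of all tested genes, and the median was 0.62 against -0.01. At an unadjusted p under 0.05, 34 members were higher and 1, Scarna2, was lower; DESeq2 and limma-voom also called 0 members lower, and called 22 and 21 higher. Every library labelled Klf5-KO was above every control for 35 members, where the share over all genes was 22.2%, and below every control for Scarna2 alone, where that share was 21%. The members were chosen with results of these libraries known, so these counts are a description.

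By class, 6 of 16 box H/ACA members were called higher (37.5%), all 16 had a log2 fold change above 0, and the median was 0.61. Of 40 box C/D members, 11 were called higher (27.5%), 37 were above 0, and the median was 0.75. Of the 6 Cajal body members 1 was called, 4 were above 0, and the median was 0.06. Differences between the classes were not tested. The summed box H/ACA level was 25.6, 28.8 and 33.5 CPM in the controls and 42.2, 49.8 and 39.6 CPM in those labelled Klf5-KO. The summed box C/D level was 44.7, 40.7 and 54.0 CPM against 62.2, 74.3 and 59.0 CPM. Neither sum overlapped between groups, and the group means differed 1.5-fold and 1.4-fold.

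**Figure D1:**
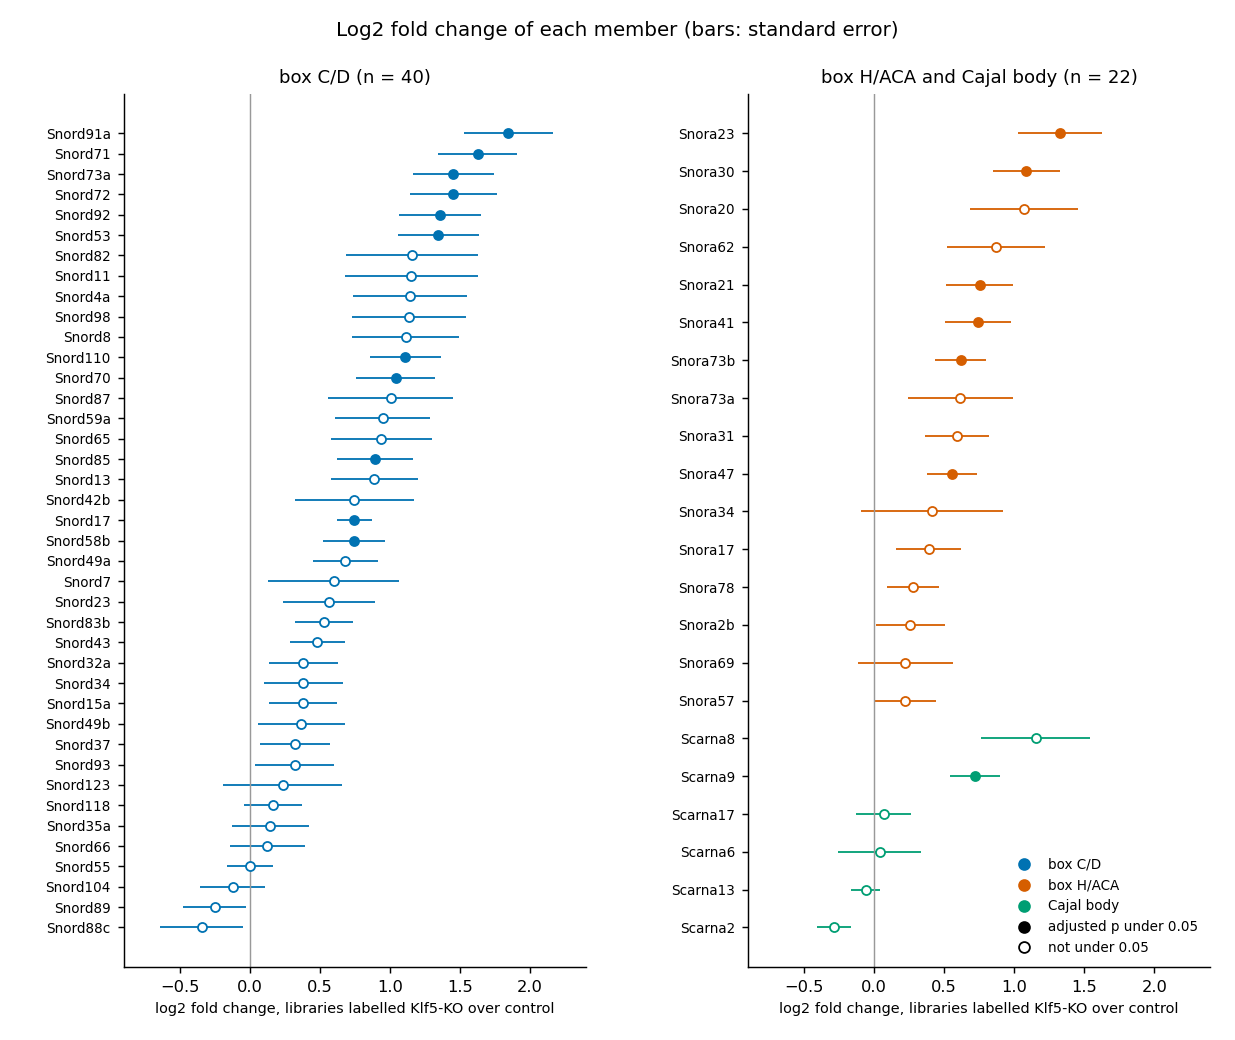
Log2 fold change of the 62 members (x axis, libraries labelled Klf5-KO over control, 3 each) with its standard error, one row a gene, coloured by class; filled points have an edgeR adjusted p under 0.05. The points run from -0.34 (Snord88c) to 1.85 (Snord91a), 57 of 62 lie right of 0, and all 18 filled points do; Klf5 itself was counted higher in the libraries labelled Klf5-KO.

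The read minimum bears on these counts. In 53 members the minimum of 10 reads was met in all 6 libraries: 17 of them were called higher, 48 were above 0, and the median log2 fold change was 0.57. The other 9 met it in all 3 libraries labelled Klf5-KO but in 1 or 2 controls only, so their direction is tied to the choice; their median was 1.14, and Snord91a was the one called. Just inside the minimum lay Scarna8, with 10, 7 and 7 reads in the controls and 16, 20 and 16 in the others, and Snord7, with 16, 11 and 4 against 19, 13 and 13. Just outside lay Snora5c, with 8, 8 and 7 against 11, 12 and 7, and Snord42a, with 6, 4 and 3 against 7, 12 and 9.

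The box C/D RNAs with the highest fold changes guide ribose methylation. Snord91a, in an intron of the ribosome assembly factor gene Tsr1, had 12, 16 and 9 reads in the controls and 36, 44 and 49 in the libraries labelled Klf5-KO. Its level went from 0.173 ± 0.0318 to 0.629 ± 0.0897 CPM (SD, n = 3 each), a log2 fold change of 1.85 (SE 0.32, edgeR adjusted p = 0.00306). No library of one group reached the range of the other. Snord71, in an intron of the clathrin adaptor gene Ap1g1, had 43, 38 and 55 reads against 118, 159 and 135. Its level rose from 0.657 ± 0.206 to 2.02 ± 0.40 CPM, a log2 fold change of 1.63 (SE 0.28, adjusted p = 0.00334). The lowest library labelled Klf5-KO held more than the highest control by reads and by CPM.

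Snord73a and Snord72 lie in introns of the ribosomal protein genes Rps3a1 and Rpl37. Snord73a had 23, 27 and 13 reads in the controls and 52, 52 and 62 in the libraries labelled Klf5-KO, a log2 fold change of 1.45 (SE 0.29, edgeR adjusted p = 0.00641). Snord72 had 12, 17 and 11 reads against 35, 37 and 34, a log2 fold change of 1.45 (SE 0.31, adjusted p = 0.00897). Both were low RNAs whose groups were well apart.

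Snord92 and Snord53 come from different introns of one gene, Wdr43, a ribosomal RNA processing factor. Snord92 had 25, 25 and 24 reads in the controls and 46, 73 and 65 in the libraries labelled Klf5-KO (log2 fold change 1.36, SE 0.29, edgeR adjusted p = 0.00943). Snord53 had 27, 36 and 33 against 72, 97 and 67 (1.35, SE 0.29, adjusted p = 0.00923). The pair rose by nearly the same amount, and Wdr43 itself stood at -0.03 (adjusted p = 0.876).

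Snord110 and Snord70 lie in introns of Nop56 and Nop58, which encode core proteins of the box C/D particle. Snord110 had 60, 49 and 62 reads in the controls and 114, 135 and 111 in the libraries labelled Klf5-KO (log2 fold change 1.11, SE 0.25, edgeR adjusted p = 0.0122). Snord70 had 33, 26 and 24 against 51, 64 and 50 (1.04, SE 0.28, adjusted p = 0.0251). The groups of both did not overlap. The call of Snord70 was lost without control replicate 2 (adjusted p = 0.0817) and without labelled Klf5-KO replicate 1 (0.0593) or 2 (0.082). Snord11, the other member in Nop58, was higher by 1.15 with 27, 10 and 41 reads against 56, 66 and 51, and did not pass (adjusted p = 0.105).

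Snord17 is a long box C/D RNA of 238 bases in an intron of the sorting nexin gene Snx5. It had 412, 476 and 350 reads in the controls and 681, 667 and 653 in the libraries labelled Klf5-KO, which were within a narrow band in each group. Its level rose from 5.83 ± 0.299 to 9.79 ± 0.700 CPM (SD, n = 3 each), a log2 fold change of 0.75 (SE 0.13, edgeR adjusted p = 0.00275), the lowest adjusted p of any member. Snord85 had 54, 67 and 78 reads against 110, 140 and 111 (0.89, SE 0.27, adjusted p = 0.0377). Snord58b, in the ribosomal protein gene Rpl17, had 91, 76 and 75 against 127, 145 and 121 (0.75, SE 0.22, adjusted p = 0.0358). Neither RNA's groups overlapped. Their calls rest on the number of libraries: each was lost on leaving out any single library other than control replicate 3, at adjusted p = 0.0623 to 0.114 for Snord85 and 0.0548 to 0.107 for Snord58b.

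Among box H/ACA RNAs, which guide pseudouridylation, Snora23 had the highest fold change. It lies in an intron of the nuclear import receptor gene Ipo7 and had 30, 31 and 25 reads in the controls and 51, 88 and 69 in the libraries labelled Klf5-KO. Its level rose from 0.406 ± 0.00555 to 1.02 ± 0.319 CPM (SD, n = 3 each), a log2 fold change of 1.33 (SE 0.30, edgeR adjusted p = 0.0111). The controls were almost equal and the other libraries spread widely above them. Snora30 had 72, 88 and 100 reads against 155, 184 and 203 (1.09, SE 0.24, adjusted p = 0.0102), again with no overlap. Its shortest host was the gene model Gm42715 (0.33, adjusted p = 0.315), and the RNA also lies within the longer gene Srcap, a chromatin remodeller.

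Snora73b, called U17 in older work, takes part in cleavage of the ribosomal RNA precursor rather than in base modification. It was the most abundant box H/ACA RNA per length, at 56.45 RPKM (CPM divided by gene length in kilobases), and had 510, 845 and 583 reads in the controls and 1001, 1024 and 832 in the libraries labelled Klf5-KO. In reads, control replicate 2 exceeded labelled Klf5-KO replicate 3; after library scaling the groups did not overlap (log2 fold change 0.62, SE 0.18, edgeR adjusted p = 0.0342). Its call was lost without control replicate 1 (0.46 on the log2 scale, adjusted p = 0.0839) or 3 (0.0583) and without labelled Klf5-KO replicate 1 (0.109) or 2 (0.105). Snora73a, the partner in the same host Snhg3, shares bases with an exon and had 23, 26 and 45 reads against 36, 52 and 55 (0.62, SE 0.38, adjusted p = 0.261). The fold changes of the pair were alike, and the groups of Snora73a overlapped.

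The other 3 called box H/ACA RNAs had smaller fold changes. Snora21, in the ribosomal protein gene Rpl23, had 76, 86 and 84 reads in the controls and 133, 156 and 113 in the libraries labelled Klf5-KO (log2 fold change 0.76, SE 0.24, edgeR adjusted p = 0.045). Snora41, in the elongation factor gene Eef1b2, had 151, 113 and 157 against 197, 249 and 245 (0.74, SE 0.24, adjusted p = 0.045). Snora47, in an intron of Zbed3, had 168, 164 and 169 against 249, 227 and 243 (0.56, SE 0.18, adjusted p = 0.0444). All 3 had groups that did not overlap and adjusted p-values close to the threshold. Snora21 lost its call without control replicate 1 or 2 or labelled Klf5-KO replicate 1 or 2 (adjusted p = 0.103 to 0.132). Snora41 (0.0647 to 0.129) and Snora47 (0.0858 to 0.132) lost it without any single library other than control replicate 3, and upper-quartile scaling also ended all 3 calls (0.0533, 0.0559 and 0.055). A filter at CPM above 1 in 3 libraries ended those of Snora41 (0.0552) and Snora47 (0.0506).

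**Figure D2:**
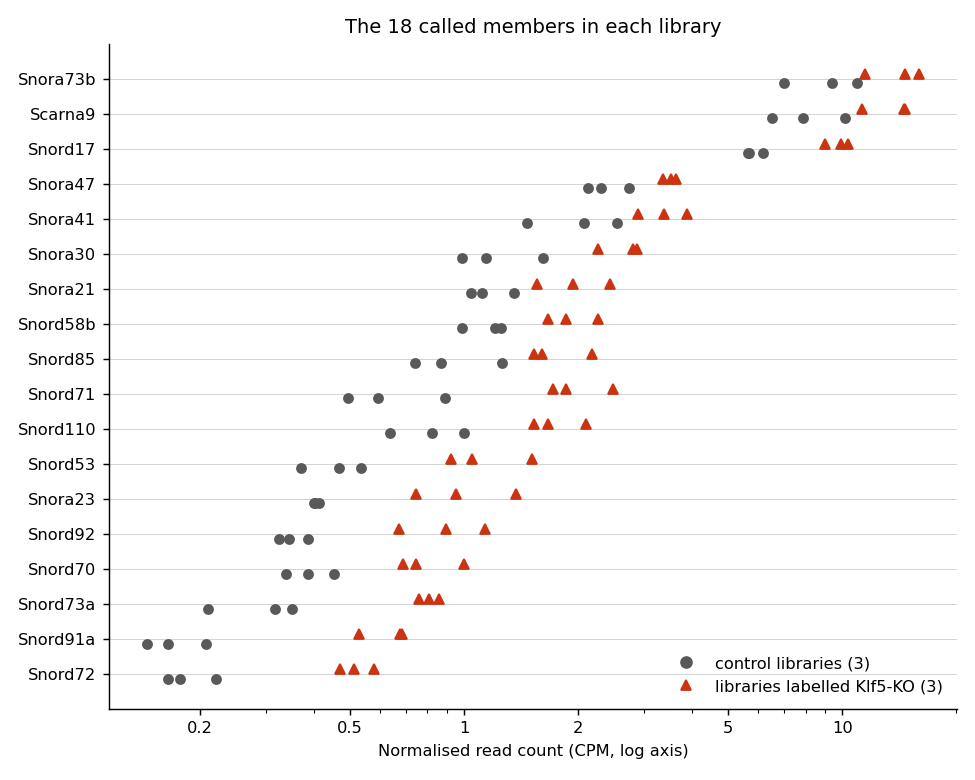
Normalised read count (CPM, log axis) of the 18 called members in each of 3 control libraries (circles) and 3 libraries labelled Klf5-KO (triangles), one row a gene, ordered by mean CPM. In every row all triangles lie right of all circles, from Snord72 at the bottom to Snora73b at the top; Klf5 itself was counted higher in the libraries labelled Klf5-KO.

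Among the most abundant members, some were called higher and others were not. Scarna2, a Cajal body RNA that guides modification of U2 spliceosomal RNA and has its own promoter, held 81.5 to 88.7% of all member reads and 1911 RPKM. It had 61794, 61853 and 59293 reads in the controls and 52038, 48334 and 45222 in the libraries labelled Klf5-KO. Its level was 869 ± 79.4 CPM against 713 ± 76.3 CPM (SD, n = 3 each); the groups did not overlap, but the log2 fold change of -0.29 (SE 0.12) did not pass (edgeR adjusted p = 0.115). Scarna9 (155 RPKM), in an intron of the centrosomal gene Cep295, had 475, 607 and 629 reads against 1005, 933 and 815, and rose (log2 fold change 0.72, SE 0.18, adjusted p = 0.0168). All 3 libraries labelled Klf5-KO lay above the controls. The call of Scarna9 was lost without control replicate 2 (adjusted p = 0.0666) and without labelled Klf5-KO replicate 1 (0.0699) or 2 (0.0541). Scarna13 (102.5 RPKM), in the non-coding host Snhg10, had 1975, 2427 and 1714 reads against 2055, 1695 and 1908 and did not pass (-0.06, SE 0.10, adjusted p = 0.698). With Scarna2 the class summed to 887, 848 and 999 CPM against 811, 800 and 667 CPM, and without it to 37.8, 46.1 and 42.2 CPM against 50.3, 46.8 and 42.4 CPM, so the sign of the difference in the class sum turned with this 1 gene.

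Among box C/D RNAs the 4 highest per length were Snord104, Snord55, Snord43 and Snord17, at 92.6, 62.5, 46.3 and 32.8 RPKM. Snord104, with no host found, had 406, 391 and 596 reads in the controls and 402, 434 and 433 in the libraries labelled Klf5-KO (log2 fold change -0.12, SE 0.23, edgeR adjusted p = 0.739). Snord55 had 307, 405 and 330 against 304, 351 and 355 (0.00, SE 0.16, adjusted p = 0.996). The groups of both overlapped throughout. Snord43, in Rpl3, is of box C/D class by its symbol, while its GENCODE biotype is miRNA. Snord43 had 296, 260 and 315 against 380, 439 and 369. The groups did not overlap, but it did not pass (0.48, SE 0.19, adjusted p = 0.0994). Without control replicate 3 it passed (0.65, adjusted p = 0.033).

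After Snora73b, the box H/ACA RNAs highest per length were Snora31 (in the translation-linked gene Tpt1), Snora78 (in Snhg9) and Snora17 (no host found), at 30.9, 24.02 and 22.8 RPKM. Snora31 had 207, 182 and 273 reads in the controls and 320, 308 and 362 in the libraries labelled Klf5-KO, and its groups did not overlap (log2 fold change 0.59, SE 0.23, edgeR adjusted p = 0.0876). Without control replicate 3 it passed (0.89, adjusted p = 0.00642). Snora78 had 177, 204 and 202 against 247, 226 and 216 (0.28, SE 0.19, adjusted p = 0.307), with overlap in CPM. Snora17 had 175, 211 and 166 against 199, 299 and 195 (0.39, SE 0.23, adjusted p = 0.252), and it too overlapped.

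Of the genes that host the RNAs in their introns, few were called higher. By coordinates, 55 members lay inside 45 host genes on the same strand, 53 of them wholly in an intron. Of the 45 hosts, 2 were called higher (4.44%) and 5 lower (11.1%), and the median host log2 fold change was -0.06; over all tested genes 13.3% were called higher and 12.5% lower, so the share of lower hosts is near the background. The hosts called higher were non-coding: Snhg3 (0.71, edgeR adjusted p = 0.0156), host of Snora73b, and Snhg6 (0.41, adjusted p = 0.0448). Those called lower were Nop53 (-0.60, adjusted p = 0.00242), Eef2 (-0.53, 0.0178), Rpsa (-0.46, 0.0331), Rpl3 (-0.40, 0.0362) and Eef1b2 (-0.33, 0.0351). Without control replicate 2, or without any 1 of the 3 libraries labelled Klf5-KO, 1 host was called lower and 0 or 1 higher.

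Of the 55 members, 48 had a log2 fold change above that of their host, with a median difference of 0.85, and for 32 of them the ratio of member to host was higher in every library labelled Klf5-KO than in every control. No ratio was lower in every such library. The share of other gene pairs with such ratios was not computed, so these counts have no background beside them. These counts include 9 members whose direction is tied to the read minimum. Among the 46 with at least 10 reads in all 6 libraries, 39 were above their host, the median difference was 0.75, and 26 had ratios higher in every library labelled Klf5-KO. Hosts were counted over exons, so the comparison sets an intron's RNA beside its host's mature message. Snord71 over Ap1g1 stood at log2 ratios of -7.48, -7.74 and -6.62 in the controls and -6.05, -5.56 and -5.83 in the libraries labelled Klf5-KO. Snora41 over Eef1b2 stood at -8.22, -8.86 and -8.05 against -7.42, -7.14 and -7.29: the RNA was called higher and its host lower. Both pairs separated completely, which in an exact two-sided permutation test gives p = 0.1, the smallest that 3 against 3 allows. Snora73b over Snhg3 stood at -0.72, 0.23 and -0.54 against -0.15, -0.52 and -0.59 and did not separate (exact permutation p = 0.9); both were called higher. Of the 18 called members, 17 were above their host and 16 had ratios that did not overlap. Besides Snora73b, the exception in overlap was Scarna9 over Cep295. These 18 were called because they were higher in the same libraries, so their place above the host follows in large part from the call.

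**Figure D3:**
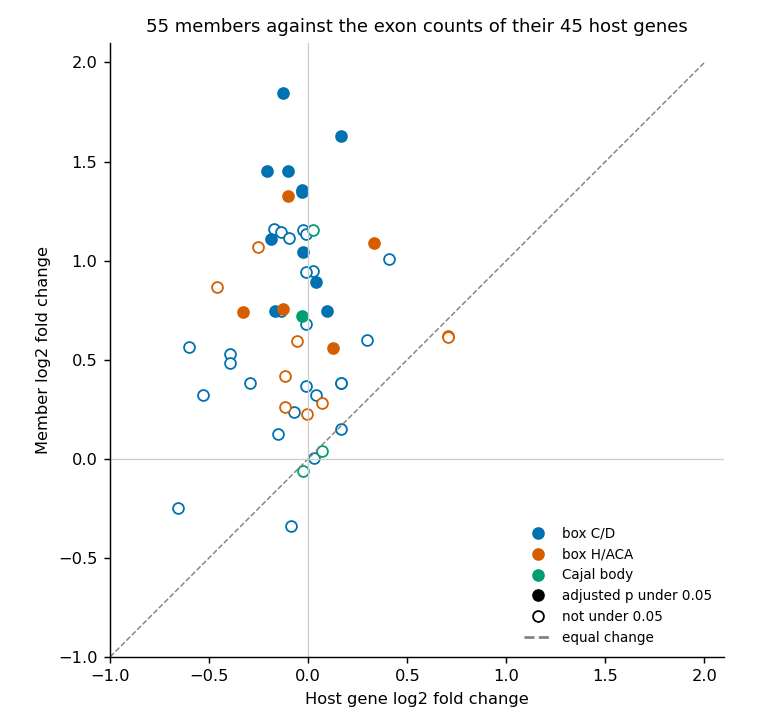
Log2 fold change of 55 members (y axis) against that of their host gene (x axis), libraries labelled Klf5-KO over control; members of one host share an x value, filled points are called members, and the dashed line marks equal change. Hosts spread from -0.66 to 0.71 around 0 while 48 of 55 members lie above the line; Klf5 itself was counted higher in the libraries labelled Klf5-KO.

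Across the 55 members the fold change did not follow that of the host (Pearson r 0.08, Spearman rho -0.06, a description over members that share libraries and in part hosts). By kind of host, 12 of 24 members in protein-coding hosts outside translation were called higher (50%, median log2 fold change 1.08), 5 of 19 in hosts of translation (26.3%, median 0.53) and 1 of 12 in non-coding hosts (8.33%, median 0.48). These differences were not tested, and the 9 members whose direction is tied to the read minimum are spread unevenly over the kinds of host. Snord91a, Snord82, Snord98, Snora20, Snora34 and Scarna8 lie in protein-coding hosts outside translation. Snord4a lies in a host of translation, and Snord87 and Snord7 lie in non-coding hosts. The median of each kind of host includes them. Of the 7 members with no host found, 0 were called by edgeR, 2 had an unadjusted p under 0.05, and the median was 0.17. Among them, Snord13 and Snord118 are transcribed from their own promoters. Snord13 had 56, 35 and 64 reads in the controls and 89, 105 and 89 in the libraries labelled Klf5-KO (0.89, SE 0.31, adjusted p = 0.0642), with no overlap. Snord118, which is needed for processing of the large subunit ribosomal RNA, had 159, 135 and 116 against 160, 153 and 131 (0.17, SE 0.21, adjusted p = 0.586), with overlap.

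There were 2 hosts that held 3 members each. In 2410006H16Rik, Snord49a, Snord49b and Snord65 had log2 fold changes of 0.68, 0.37 and 0.94 with a host at -0.01. In Rpl13a, a ribosomal protein gene, Snord32a, Snord34 and Snord35a had 0.38, 0.38 and 0.15 with a host at 0.17. None of these 6 passed (edgeR adjusted p = 0.0576 to 0.727), and the groups of Snord49a and Snord65 did not overlap. RNAs of one host thus spanned ranges of 0.37 to 0.94 and 0.15 to 0.38.

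Less abundant members had the higher fold changes, and members under 100 bases a higher median than longer ones. Of 34 members under 100 bases, 11 were called higher and the median log2 fold change was 0.75. Of 21 members of 100 to 150 bases, 4 were called, with a median of 0.56, and of 7 longer ones 3 were called, with a median of 0.62. Over the 62 members Pearson r with length was -0.31 and Spearman rho -0.23, and with log10 mean CPM they were -0.47 and -0.48. These are descriptions over genes that share libraries, and the read minimum admits low members more readily where they are high in 1 group. In the tertile of members lowest in CPM 4 of 20 were called (median 0.98), in the middle 8 of 21 (0.75) and in the highest 6 of 21 (0.39). Distance to the next exon downstream, which for box C/D RNAs is often short, gave 7 called of 29 within 150 bases (median 0.62) and 11 of 24 further away (0.81).

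Which RNAs could be members depended on the gene models. Reads that fell on exons of more than 1 gene were not assigned, and 71 of the 150 annotated genes share a base with an exon of another gene on the same strand. Of those 71, 5.63% were members, against 73.4% of the 79 that share none. The 88 genes that were not members included 67 with such an overlap and 17 with an identical copy elsewhere, and 76 of them had 0 reads in all libraries. All 17 annotated box C/D genes in Snhg14, a set of near-identical Snord116 copies, together had 1 read in the 6 libraries. The 5 not counted in Snhg12 and the 4 in Gas5 had 0. A 0 for these genes therefore says nothing of their level. Of the 62 members 58 had no overlap and 4 did (Snora73a, Snora34, Snord42b and Scarna13), none of which was called by edgeR or reached an unadjusted p under 0.05.

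**Figure D4:**
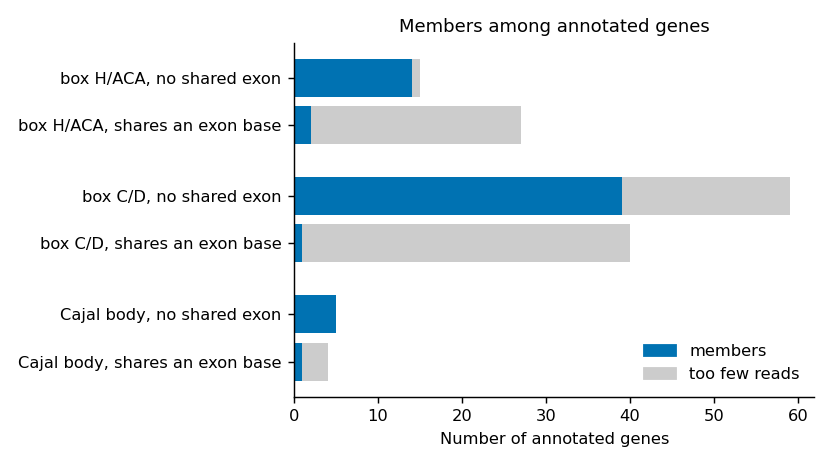
Number of annotated genes (x axis) by class and by whether they share a base with an exon of another gene on the same strand; blue bars are members and grey bars are genes with too few reads. Of genes with no shared base 14 of 15 box H/ACA, 39 of 59 box C/D and 5 of 5 Cajal body genes were members, and of genes with one 2 of 27, 1 of 40 and 1 of 4.

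Genes of biotype snoRNA or scaRNA outside the symbol rule were also called higher more often than the 13.3% of all tested genes. Among 96 other tested genes of biotype snoRNA or scaRNA, 93 of them with provisional Gm symbols, 33 were called higher (34.4%) and 0 lower by edgeR, 85 were above 0, 1 was lower at an unadjusted p under 0.05, and the median log2 fold change was 0.67. Their summed level was 150, 157 and 181 CPM in the controls against 261, 260 and 230 CPM in libraries labelled Klf5-KO, with no overlap. A large part of that sum was 1 gene, Gm22009, at a mean of 55.4 CPM in the controls against 98.8 CPM. The filter for tested genes can also be met through the libraries of 1 group, which ties the direction of such a gene to the filter. Gm22786 met it so, with 8, 6 and 7 reads in the controls against 25, 29 and 31. Gm25432 met it through the controls, with 13, 13 and 11 reads against 8, 5 and 4. How many of the 96 did so was not counted. Of 77 spliceosomal and other snRNA genes 7 were called higher (9.09%, below the share over all genes) and 0 lower (1 at an unadjusted p), with a median of 0.35. Of 112 genes of biotype miRNA, the member Snord43 among them, 11 were higher and 5 lower, with a median of 0.08. Short genes outside the small RNA biotypes, 157 under 300 bases, had 14 higher and 11 lower and a median of 0.08. Their median length was 229 bases, against 91.5 for the members, so they do not match the members in length. Of 9 mitochondrial tRNA genes, with a median length of 69 bases, 5 were called higher (55.6%) and 0 lower. All 9 were above 0, and their median of 1.25 was higher than that of the members.

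A larger share of sense intronic and TEC gene models than the 13.3% of all tested genes was called higher. Of 162 sense intronic genes (unspliced models inside introns) 34 were called higher (21%) and 5 lower, with a median log2 fold change of 0.47, and of 1170 TEC genes (GENCODE models awaiting experimental proof, many of them unspliced) 256 were called higher (21.9%) and 55 lower, with a median of 0.38. These biotypes took 0.189, 0.161 and 0.175% of reads in the controls and 0.215, 0.214 and 0.208% in the libraries labelled Klf5-KO, with no overlap. The mitochondrial share of reads was 2.69, 1.97 and 2.53% against 3.01, 3.00 and 3.36%. The members' own share, without Scarna2, was 0.0109 to 0.013% against 0.0141 to 0.0165%. How far transcript of these biotypes, mitochondrial share or recovery of short RNA on the column has a part in the members' difference was not tested.

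**Figure D5:**
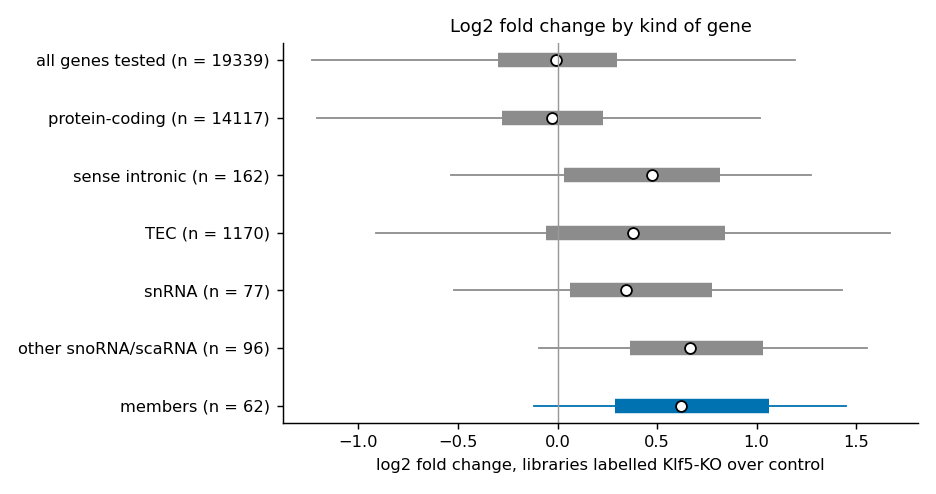
Log2 fold change (x axis, libraries labelled Klf5-KO over control) for kinds of gene: thin lines span the 5th to 95th percentile, thick bars the 25th to 75th, and circles the median. The medians of members (0.62) and of other snoRNA or scaRNA genes (0.67) lie right of those of sense intronic (0.47), TEC (0.38), snRNA (0.35), protein-coding (-0.03) and all genes (-0.01); Klf5 itself was counted higher in the libraries labelled Klf5-KO.

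No gene on a fixed list of proteins that bind or assemble these RNAs was called higher. Of 26 tested genes of the snoRNA particle and its assembly, 0 were called higher and 4 lower by edgeR, and the median log2 fold change was -0.08. Over all tested genes 13.3% were called higher and 12.5% lower, and the count of 4 lower is near the second share. With 1 library left out, 0 to 1 of the listed genes were called higher. At an unadjusted p under 0.05, 2 were higher and 5 lower, and DESeq2 and limma-voom also called 0 higher. The 4 were Rpap3 (-0.41, adjusted p = 0.0168) and Ruvbl2 (-0.28, 0.0396), both of the chaperone complex that builds box C/D particles, Phax (-0.41, 0.0256), an export adaptor for small RNAs, and Nolc1 (-0.43, 0.0275), a nucleolar and Cajal body phosphoprotein. None of the 4 core proteins of either class was called. For box C/D, Fbl stood at -0.19, Nop56 at -0.19, Nop58 at -0.03 and Snu13 at -0.11. For box H/ACA, Dkc1 stood at -0.21, Nhp2 at -0.05, Gar1 at 0.19 and Nop10 at 0.21. The count of 4 lower fell to 1 without control replicate 1 and to 0 without control replicate 2 or labelled Klf5-KO replicate 1 or 3.

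Of 16 tested long non-coding hosts of snoRNAs, 3 were called higher and 0 lower by edgeR, DESeq2 and limma-voom alike, 0 were lower at an unadjusted p under 0.05, and the median log2 fold change was 0.15. Over all tested genes 13.3% were called higher, and the count of 3 is near that share. They were Snhg14 (1.58, adjusted p = 0.000757), Snhg3 and Snhg6. Snhg14, the imprinted host of the uncounted Snord116 copies, had 200, 233 and 150 reads in the controls and 666, 381 and 635 in the libraries labelled Klf5-KO. The count was 1 without control replicate 2 or labelled Klf5-KO replicate 2, and 6 without control replicate 3. Of 9 tested other small structured RNAs, 1 was called higher and 0 lower (0 also at an unadjusted p under 0.05, and by DESeq2 and limma-voom): Rnu73b, of biotype snoRNA, had 75, 52 and 28 reads against 97, 123 and 109 (1.16, adjusted p = 0.0246). That call was lost in the count without control replicate 2 and without each of the libraries labelled Klf5-KO in turn. Rn7sk, the abundant RNA that restrains transcription elongation, stood at 0.31 (adjusted p = 0.249).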

How the data were processed

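Gene counts were analysed for 3 control libraries and 3 libraries labelled Klf5-KO. The authors deposited raw read counts for each gene. The submitters' processing notes name STAR 2.5.2a, mm10 and DESeq2 1.18.1. Exons of GENCODE vM16 were counted by featureCounts 1.4.3-p1 with the reverse strand setting, per the file headers, without options for reads with several alignments or on several genes, so RNAs with identical copies or shared exons lose reads. In the file of labelled Klf5-KO replicate 3 the header names a KO sample under a different number; its sample was taken as GEO records it.

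Symbols, biotypes and transcript sequences came from GENCODE vM21, which matched 53274 of 53379 gene IDs; all 150 candidate genes have the same coordinates there. A host was the shortest longer gene on the same strand that spans the member and is not itself a small RNA. The test was edgeR 4.0.16's quasi-likelihood test in R 4.3.3, after filterByExpr and TMM scaling, on group alone. Benjamini-Hochberg adjustment ran over 19339 genes, with a threshold of 0.05. The biological coefficient of variation was 17%. CPM uses the scaled library sizes, and member-to-host ratios add 0.5 to both counts. Every pair of libraries differed by more than sampling noise. The fit was tested on simulated data made from these libraries (19042 genes): it recovered 32% of genes changed 1.5-fold, 46% at 2-fold and 98% at 4-fold, and 16 of its 153 calls were false.

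Alternatives were other scalings, filters, tests (DESeq2 1.42.0, limma-voom from limma 3.58.1), a replicate block, leaving out each library, other read minimums and the longest host. Named genes were every called member, the members highest in RPKM (4 of box H/ACA, 4 of box C/D, 3 of the Cajal body class), their hosts, hosts of 3 or more members and called genes of each list. Further genes are named for values already known. Some hosts and 1 sequence are not reported here. The members and the gene lists were chosen with earlier results of these data known.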

Additional observations from a re-analysis of the deposited data

How the results depend on the processing

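The 18 called members kept their direction in every alternative in which they had a value. Of these, 10 stayed called in every such alternative (Snord91a, Snord71, Snord73a, Snord72, Snord92, Snord53, Snord110, Snord17, Snora23 and Snora30), and 8 lost the call on leaving out at least 1 library. Of the 10, 6 were dropped by the filter at CPM above 1 in 3 libraries and so had no value there: Snord91a, Snord73a, Snord72, Snord92, Snord53 and Snora23. Snord91a also met the read minimum in 2 controls only. Members called higher numbered 10 to 24 when 1 library was left out, box H/ACA 2 to 7, box C/D 8 to 16 and Cajal body 0 to 1. All genes called higher then ranged from 1605 to 2740 and lower from 1467 to 2664. Hosts called higher ranged from 0 to 2 and lower from 1 to 6, snoRNA particle proteins called higher from 0 to 1 and lower from 0 to 6, host non-coding RNAs called higher from 1 to 6, and other small structured RNAs from 0 to 2.

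A filter at CPM above 1 in 3 libraries, which drops low members, left 9 members called higher, 3 of box H/ACA and 5 of box C/D, with a box C/D median of 0.47 and 1 host called higher. Upper-quartile scaling gave 3 box H/ACA members and 1 host called higher, and the longest host gave 1. Other small structured RNAs called higher numbered 3 with no filter and 2 with DESeq2 or limma-voom. No scaling moved the median of all genes by over 0.1. The replicate numbers did not pair the libraries (correlations of same-numbered deviations -0.009, 0.006 and -0.041). With the replicate number as a block, 12 members were called higher, 3 of them box H/ACA; 6 of the 18 calls were lost: Snord70, Snord85, Snord58b, Snora21, Snora41 and Snora47, at adjusted p = 0.0572 to 0.0878. In data simulated from these libraries 32% of genes changed 1.5-fold were recovered. The changed genes were drawn at random from all tested genes, so recovery of the members themselves was not measured. An uncalled member is not shown to be equal between groups.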
